A study of Rattus norvegicus with 4 samples.

Results

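Complement is a set of plasma and cell-surface proteins that tag targets for removal and drive inflammation. In its classical pathway C1q, built from the A, B and C chains, recognises the target. The attached protease C1r then activates C1s, which cleaves C4 and C2, and this leads to cleavage of C3. C1 inhibitor, the product of Serping1, blocks C1r and C1s. The liver makes most circulating complement, while macrophages are a main source of C1q, and fibroblasts can make C1r and C1s. The 8 genes described here are C1qa, C1qb, C1qc, C1r, C1s, C2, C3 and Serping1, taken by their gene symbol in the platform annotation. Of the 8 genes, 7 had a probe set of their own, out of 14218 genes named by at least 1 probe set with a single symbol, and each of the 7 had exactly 1. C2 had none of its own and shared 4 probe sets with Cfb, the gene of complement factor B, so the 8 genes were found on 11 probe sets in all.

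The 4 arrays measured skeletal muscle of rats of the F344/DuCrlCrlj strain in a claudication model, in which a poor blood supply to the leg limits walking. One array each stood for ischemia with electrical stimulation (ES), ischemia with exercise, ischemia alone and sham. The model's surgery, the muscle taken, the age of the rats, the timing of ES and exercise and the number of animals behind an array are not stated in the labels. There were no replicates, so each difference below is one between 2 arrays, without an error, a test or a replicate check. Signals are the deposited intensities after scaling each array to a common trimmed mean. For ratios, medians and sums, a signal under the floor of 30.1, the median of all values, was set to the floor. A ratio that used such a signal is nearer to 1 than without the floor. Of the named genes, 10092 lay above the floor on at least 1 array and were compared. All 10 skeletal muscle markers lay above the floor. The signal at the 3' end of an RNA over that at its 5' end is larger in degraded RNA. For actin this ratio was 5.94 with ES, 4.34 with exercise, 3.81 in ischemia and 4.38 in sham. For Gapdh it was nearer to 1, with 1.26 with ES, 1.16 with exercise, 1.04 in ischemia and 1.16 in sham.

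The C1q genes lie next to each other, in the order C1qb, C1qc and C1qa, within 17658 bases of chromosome 5 (chr5:154402276-154419933, GRCr8). C1r and C1s are neighbours on chromosome 4, with 6778 bases between them. The RefSeq promoter table (GRCr8, 250 bases before to 50 after the start) held 4 of the 8 genes, C1qa, C1qb, C1r and C3. The windows of C1qa and C1qb are shown because these genes of one cluster gave nearly the same ratio between exercise and ischemia and different ratios between ES and ischemia. Both are on the minus strand, and capitals mark the motif matches described after them.
C1qa, chr5:154419884-154420183, minus strand: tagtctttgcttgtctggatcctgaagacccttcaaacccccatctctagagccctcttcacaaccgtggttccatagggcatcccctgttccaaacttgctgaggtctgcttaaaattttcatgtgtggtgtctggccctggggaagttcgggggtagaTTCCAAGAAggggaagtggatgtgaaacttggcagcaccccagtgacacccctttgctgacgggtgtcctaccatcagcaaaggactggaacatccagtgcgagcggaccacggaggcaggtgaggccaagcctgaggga
C1qb, chr5:154407778-154408077, minus strand: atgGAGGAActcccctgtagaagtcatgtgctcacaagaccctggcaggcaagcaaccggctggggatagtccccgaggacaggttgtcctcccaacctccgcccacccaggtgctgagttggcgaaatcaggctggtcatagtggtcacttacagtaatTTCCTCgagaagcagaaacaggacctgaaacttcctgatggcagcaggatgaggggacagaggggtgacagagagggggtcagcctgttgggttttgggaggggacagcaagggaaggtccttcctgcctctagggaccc
The motifs searched on both strands were GAGGAA (the PU.1 core), GAAA and GAAA with any 2 bases between them (the interferon-stimulated response element), TTCNNNGAA (a STAT site), TTGCNNAA (C/EBP), TATAAA and CCAAT. The C1qb window held GAGGAA at -247 and, on the other strand, at -90 from the start. This motif is found in 27.6% of the 33469 promoters in the table, and the C1r window, not shown, held it at -55 on the other strand. The C1qa window held TTCNNNGAA at -90, which 8.87% of the promoters hold. The C1r window also held TTGCNNAA at -83 on the other strand, and the C3 window, not shown, held it at -104. TTGCNNAA is found in 10.6% of the promoters. No match overlapped another, and the C1qa and C1qb windows held none of the other motifs. A match is a run of letters and does not show that a factor binds there, and the part of these motifs in the ratios was not tested.

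C1q gene signals were higher in ischemia than in sham for all 3 chains, and lower with exercise than in ischemia. C1qa, the A chain, had a signal of 298 with ES, 168 with exercise, 295 in ischemia and 171 in sham. The 4 arrays thus formed a high pair, ES and ischemia, and a low pair, exercise and sham. C1qc, the C chain, had 149 with ES, 113 with exercise, 153 in ischemia and 95.2 in sham, the same pairs with a smaller gap. C1qb, the B chain, had 46.0 with ES, 54.9 with exercise, 95.4 in ischemia and 47.1 in sham. It was high on the ischemia array alone, and its other 3 signals lay less far above the floor than those of C1qa and C1qc. Levels of different probe sets cannot be compared, so these values do not order the chains.

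In ischemia against sham the C1q ratios were 1.72-fold for C1qa, 2.02-fold for C1qb and 1.61-fold for C1qc, all higher. In exercise against ischemia they were 1.75-fold, 1.74-fold and 1.36-fold lower in the same order. The chains parted in ES against ischemia. C1qb was 2.08-fold lower, while C1qa (1.010-fold higher) and C1qc (1.03-fold lower) had nearly equal signals on both arrays. C1qb rested on a single, dim probe set, so no second probe set could be set against it. The ES array also had the highest 3' over 5' ratio for actin (5.94) and for Gapdh (1.26), and the part of this in the C1qb value was not tested.

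**Figure D1:**
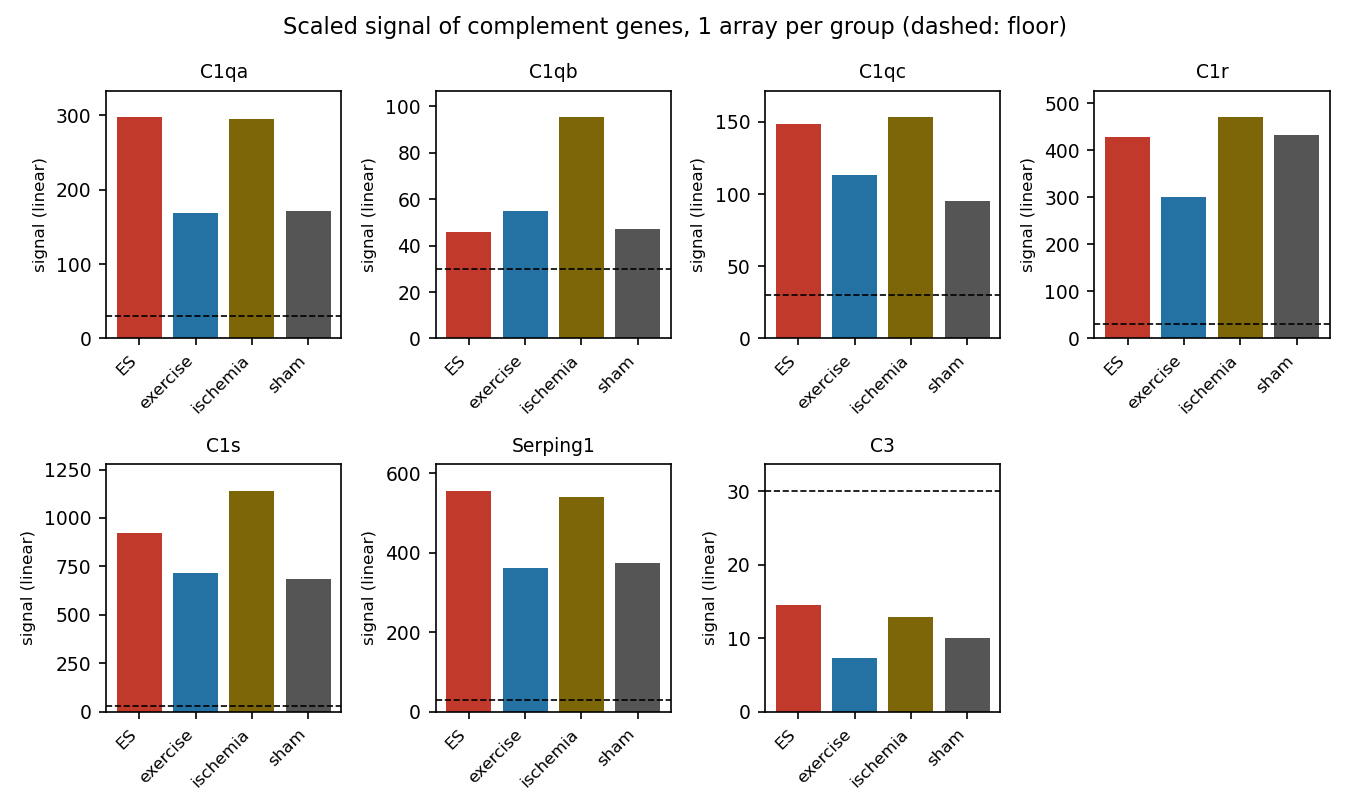
Scaled signal (linear axis from 0) of the 7 complement genes with a probe set of their own, 1 bar per array in the order ES, exercise, ischemia and sham; the dashed line is the floor of 30.1. C1qa, C1qc and Serping1 are high with ES and in ischemia, C1qb is high in ischemia alone (95.4), and C3 stays under the floor on all 4 arrays.

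The proteases of the C1 complex differed from each other in ischemia against sham. C1s, which cleaves C4 and C2, had a signal of 924 with ES, 717 with exercise, 1141 in ischemia and 686 in sham. Its ischemia signal was the highest, the ES signal came next, and those of exercise and sham were close. C1s was 1.66-fold higher in ischemia than in sham, 1.24-fold lower with ES than in ischemia and 1.59-fold lower with exercise than in ischemia. C1r, which activates C1s, had a signal of 428 with ES, 300.5 with exercise, 470 in ischemia and 432 in sham. Here the exercise array stood below the other 3, whose signals were close. C1r was only 1.09-fold higher in ischemia than in sham, but 1.57-fold lower with exercise than in ischemia, and it was 1.44-fold lower with exercise than in sham (log2 ratio of -0.52), the largest such difference among the 6 measured genes.

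Serping1, the gene of the inhibitor, had a signal of 556 with ES, 361 with exercise, 541 in ischemia and 374 in sham. Its arrays paired as those of C1qa did. It was 1.45-fold higher in ischemia than in sham, 1.03-fold higher with ES than in ischemia and 1.496-fold lower with exercise than in ischemia. C3, the component on which all complement pathways meet, had 14.6 with ES, 7.38 with exercise, 12.9 in ischemia and 10.05 in sham. All 4 values were under the floor, so no ratio is given for C3, and these values do not show that the gene is silent.

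The 4 probe sets annotated to both Cfb and C2 are given by their identifiers, since the values cannot be assigned to either gene. Cfb and C2 are neighbours on chromosome 20 and encode related proteases, of the alternative and the classical pathway. Probe set 1383391_a_at, the brightest, had a signal of 240 with ES, 139 with exercise, 283 in ischemia and 101 in sham. It was 2.80-fold higher in ischemia than in sham, 1.18-fold lower with ES than in ischemia and 2.04-fold lower with exercise than in ischemia. Probe set 1383392_at had 52.9 with ES, 32.6 with exercise, 75.7 in ischemia and 11.2 in sham. It was at least 2.51-fold higher in ischemia than in sham, where it was under the floor, and 2.32-fold lower with exercise than in ischemia. Probe set 1393219_at had 56.7 with ES, 36.2 with exercise, 56.6 in ischemia and 18.1 in sham, and was at least 1.88-fold higher in ischemia than in sham. Probe set 1389470_at differed from these, with 79.7 with ES, 51.0 with exercise, 56.6 in ischemia and 46.2 in sham, a ratio of 1.23-fold higher in ischemia than in sham. Sham was the lowest array on all 4 probe sets, and ES and ischemia were the highest 2 arrays on all 4.

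**Figure D2:**
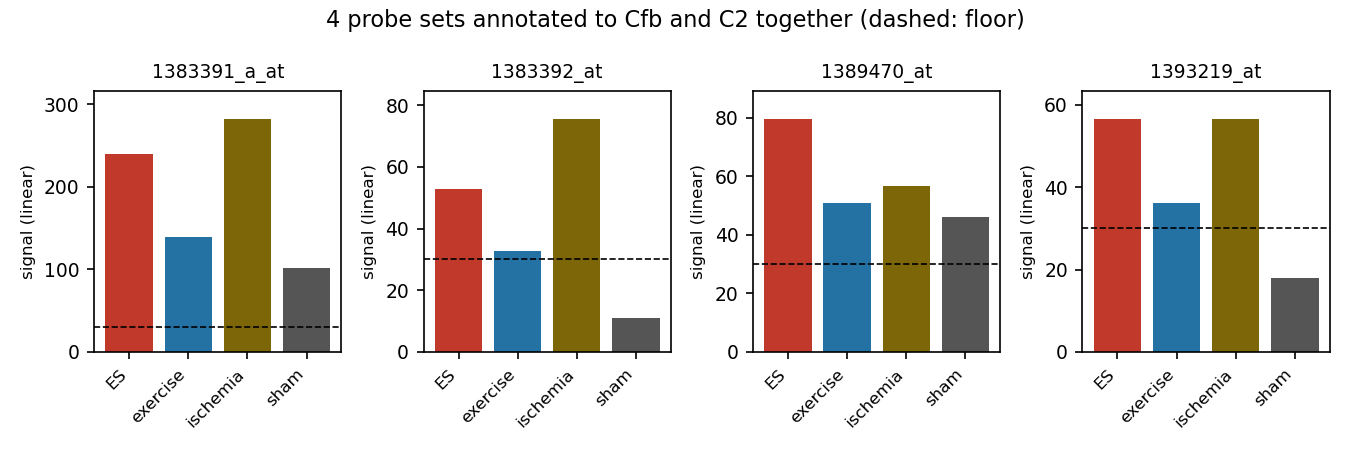
Scaled signal (linear axes from 0) of the 4 probe sets annotated to Cfb and C2 together, 1 bar per array in the order ES, exercise, ischemia and sham; the dashed line is the floor of 30.1. Sham is lowest in each panel, and the brightest probe set has 283 in ischemia and 101 in sham.

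Counted over the 6 genes above the floor, 1 gene, C1qb, was at least 2-fold higher in ischemia than in sham, where 0.783% of the 10092 compared genes were. All 6 had log2 ratios above 0, as had 50.3% of the compared genes, and their median was 0.71 against 0.00 for the compared genes. The C1qb count was lost under quantile and loess normalization, where its log2 ratio was 0.95 and 0.97 in place of 1.02. At a threshold of 1.5-fold, 4 of the 6 were higher (C1qa, C1qb, C1qc and C1s), beside 4.94% of the compared genes.

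In exercise against ischemia none of the 6 was 2-fold lower, beside 0.872% of the compared genes, but all 6 had log2 ratios below 0, between -0.81 (C1qa) and -0.44 (C1qc), as had 48.7% of the compared genes. Their median was -0.66, that of the compared genes 0.00. At 1.5-fold, C1qa, C1qb, C1r and C1s were lower, 4 of 6 beside 4.24% of the compared genes. In ES against ischemia C1qb alone was 2-fold lower, beside 0.793% of the compared genes. The other 5 had log2 ratios between -0.31 (C1s) and 0.04 (Serping1), and the median of the 6 was -0.09 against 0.05 for the compared genes. Both of these comparisons, and that with sham, use the same ischemia array, so its signals enter all 3.

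Comparisons that do not use the ischemia array gave the following values. In ES against exercise, 0 of 6 were 2-fold higher or lower, beside 2.95% of compared genes higher and 1.1% lower. At 1.5-fold C1qa (1.77-fold) and Serping1 (1.54-fold) were higher, beside 10.5% of compared genes. Of the 6 genes, 5 had log2 ratios above 0, as had 54.5% of the compared genes. The exception was C1qb at -0.25. In ES against sham, 0 of 6 passed 2-fold, beside 3.78% of compared genes higher and 1.06% lower. At 1.5-fold C1qa (1.74-fold) and C1qc (1.56-fold) were higher, beside 12.4% of compared genes. C1s was 1.35-fold and Serping1 1.49-fold higher, while C1r and C1qb had log2 ratios of -0.01 and -0.04. In exercise against sham, 0 of 6 passed 2-fold, beside 0.258% of compared genes higher and 0.188% lower. The median was 0.02 (-0.02 with a floor at the 70th percentile), with log2 ratios from -0.52 for C1r to 0.25 for C1qc.

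**Figure D3:**
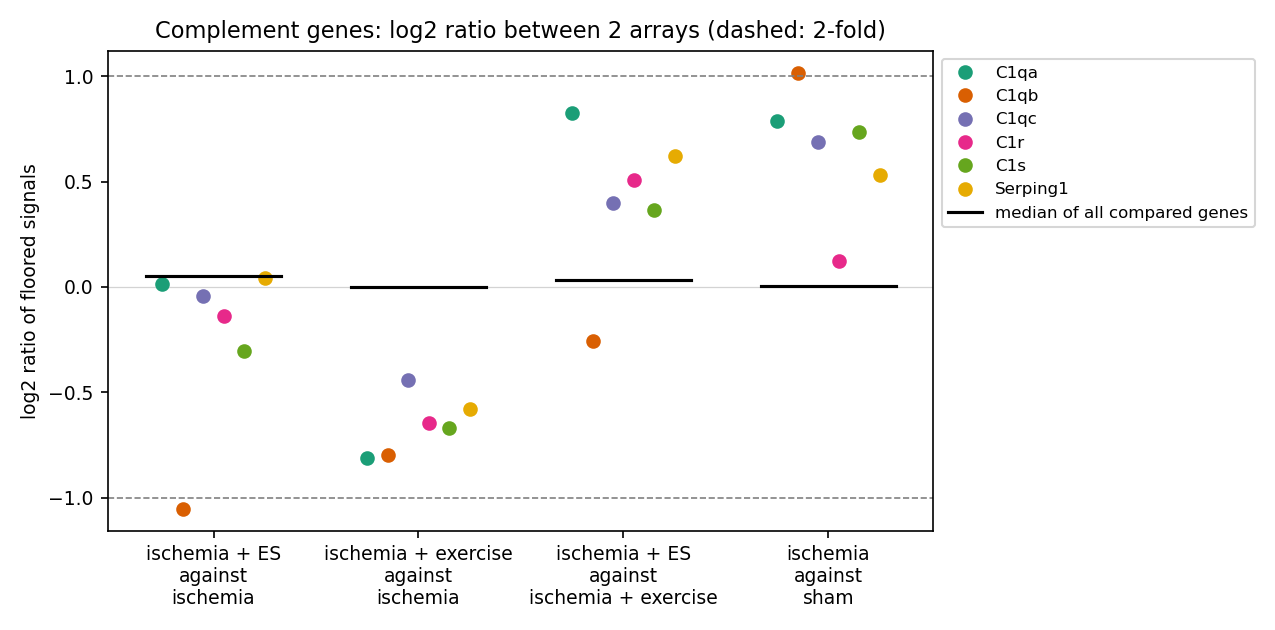
Log2 ratio of the floored signals between 2 arrays (vertical axis) for the 6 complement genes above the floor, in 4 comparisons; black bars are the median of the 10092 compared genes and dashed lines mark 2-fold. All 6 points lie below 0 in exercise against ischemia and above 0 in ischemia against sham, and C1qb stands apart at -1.05 in ES against ischemia.

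Other complement genes were taken from 4 lists of 49 genes in all, of which 37 had a probe set of their own. Of these, 16 did not rise above the floor on any array, among them C5, C6, C9, Cfi, C3ar1 and Itgam, and 21 were compared. In ischemia against sham the median log2 ratio was 0.71 for the C1 genes and Serping1 and 0.11 for the 21. None of the 21 passed 2-fold, beside 1.64% of the compared genes. The median of the 21 was 0.10 in ES against ischemia and -0.05 in exercise against ischemia. In the first, 1 gene was at least 2-fold higher and 1 lower, beside 2.28% and 0.793% of the compared genes. In the second, 1 was lower, beside 0.872%. Cfb, Cd59, C4a, C4b and C7 had no probe set of their own, so they are not among the 21. In ischemia against sham, the shared probe set of C4a and C4b was 2.20-fold higher. Those of Cfb and C2 were 2.80-fold (1383391_a_at), at least 2.51-fold (1383392_at), at least 1.88-fold (1393219_at) and 1.23-fold (1389470_at) higher. Those of Tubb4b and C7 were 1.51-fold and 1.54-fold higher. The median of the 21 does not cover these probe sets.

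Among regulators, Cd55, which breaks up the convertases on cell surfaces, had a signal of 292 with ES, 667 with exercise, 641 in ischemia and 624 in sham. ES alone was low, 2.20-fold below ischemia, and the other Cd55 probe set had a log2 ratio of -0.76. Cr1l, a membrane regulator of rodents, was 1.53-fold higher in ischemia than in sham (log2 ratio of 0.61), and Cd59b, an inhibitor of the terminal complex, had signals between 2371 and 2600 on the 4 arrays. Clu, the gene of clusterin, had 1037 with ES, 732 with exercise, 964 in ischemia and 788 in sham. Among receptors, Itgb2, the shared chain of complement receptors 3 and 4, had a signal of 106 with ES, 35.4 with exercise, 77.7 in ischemia and 45.4 in sham, and was 2.19-fold lower with exercise than in ischemia. Cd93, a membrane protein of endothelial and myeloid cells, had 1180 with ES, 436 with exercise, 446 in ischemia and 347 in sham, and was 2.65-fold higher with ES than in ischemia. The other Cd93 probe set was above the floor with ES alone (32.3), and its floored log2 ratio in ES against ischemia was 0.099. The receptor gene C5ar1 had 124 with ES, 66.0 with exercise, 96.9 in ischemia and 79.0 in sham.

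Among recognition molecules and later components no gene with a probe set of its own passed 2-fold against ischemia with ES or exercise. The genes compared were 5 and 3. Of all compared genes, 3.07% passed 2-fold in ES against ischemia and 2.01% in exercise against ischemia. Shared probe sets were not counted here. That of C4a and C4b had a log2 ratio of -1.11 in ES against ischemia. In exercise against ischemia, those of Cfb and C2 had -1.03 (1383391_a_at), -1.22 (1383392_at), -0.65 (1393219_at) and -0.15 (1389470_at). Fcna, a ficolin of the lectin pathway, had a signal of 79.1 with ES, 54.9 with exercise, 84.4 in ischemia and 75.8 in sham, the same order of arrays as C1r except that ES lay above sham. Cfd, the protease that cleaves factor B and a product of fat cells, had 236 with ES, 389 with exercise, 309 in ischemia and 194 in sham. It was 2.004-fold higher with exercise than in sham, and this fell under 2-fold with quantile normalization. In the family of C1q and TNF related genes, which share a C1q-like domain and are not complement, 8 of 13 genes with a probe set of their own were compared. Their median log2 ratio was 0.54 in ischemia against sham, 0.13 in ES against ischemia and -0.17 in exercise against ischemia. C1qtnf3 had 92.1 with ES, 46.6 with exercise, 87.6 in ischemia and 45.3 in sham, and C1qtnf6 had 120 with ES, 50.2 with exercise, 83.1 in ischemia and 56.5 in sham. Both were past 2-fold higher in ES against sham, beside 3.78% of the compared genes. This count fell to 0 under quantile and loess normalization. Adipoq, a fat cell product of the same family, was 3.07-fold higher with exercise than in ischemia.

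The medians of macrophage, pan-leukocyte and fibroblast markers differed in the same directions as the C1 genes in ischemia against sham and in exercise against ischemia. In tissue arrays, fewer cells of a type and less RNA per cell cannot be told apart. Sums of floored signals, here and for the fibroblast markers below, weigh the brightest probe sets most. The summed signal of 17 of 18 macrophage markers above the floor was 6672 with ES, 3784 with exercise, 5584 in ischemia and 2621 in sham. Without Lgals3, left out after its values of 1590 with exercise and 449 in sham were seen, the sum was 5791 with ES, 2194 with exercise, 4779 in ischemia and 2172 in sham. The median log2 ratio of the 17 was 0.84 in ischemia against sham. Of the 17, 5 passed 2-fold there, all higher, beside 0.783% of the compared genes. The median was -0.96 in exercise against ischemia, where 7 passed 2-fold, all lower, beside 0.872% of the compared genes. In ES against ischemia it was 0.13 with none past 2-fold, beside 2.28% of the compared genes higher and 0.793% lower. In exercise against sham it was -0.09, with 10 of 17 below 0, beside 44.4% of the compared genes. Single macrophage markers went the other way. In ischemia against sham 16 of the 17 had log2 ratios above 0, beside 50.3% of the compared genes, and Cd163 alone was below (-0.33). In exercise against ischemia 15 were below 0, beside 48.7% of the compared genes, and Cd163 (0.15) and Lgals3 (0.98) were above. For 12 fibroblast markers, all above the floor, the summed signal was 23723 with ES, 15777 with exercise, 27367 in ischemia and 15555 in sham, with median log2 ratios of 0.74, -0.67 and -0.07 in ischemia against sham, exercise against ischemia and ES against ischemia. Of the 12, Pi16 was below 0 in ischemia against sham (-0.41), and Pi16 (0.25) and Lum (0.08) were above 0 in exercise against ischemia. The 6 pan-leukocyte markers above the floor had medians of 0.56, -0.98 and 0.20 in these comparisons. The part of these cells in the complement values was not tested.

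Of 8 hepatocyte markers, Alb and Apoa1 among them, none lay above the floor on any array. Of 9 lymphocyte markers 2 and of 5 neutrophil markers 2 were above it. In ES against ischemia the median was -0.09 for the 6 complement genes, 1.03 for 8 endothelial genes and 0.92 for 17 interferon response genes. In ischemia against sham it was 0.71 for the complement genes, -0.11 for the endothelial and 0.20 for the interferon response genes.

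**Figure D4:**
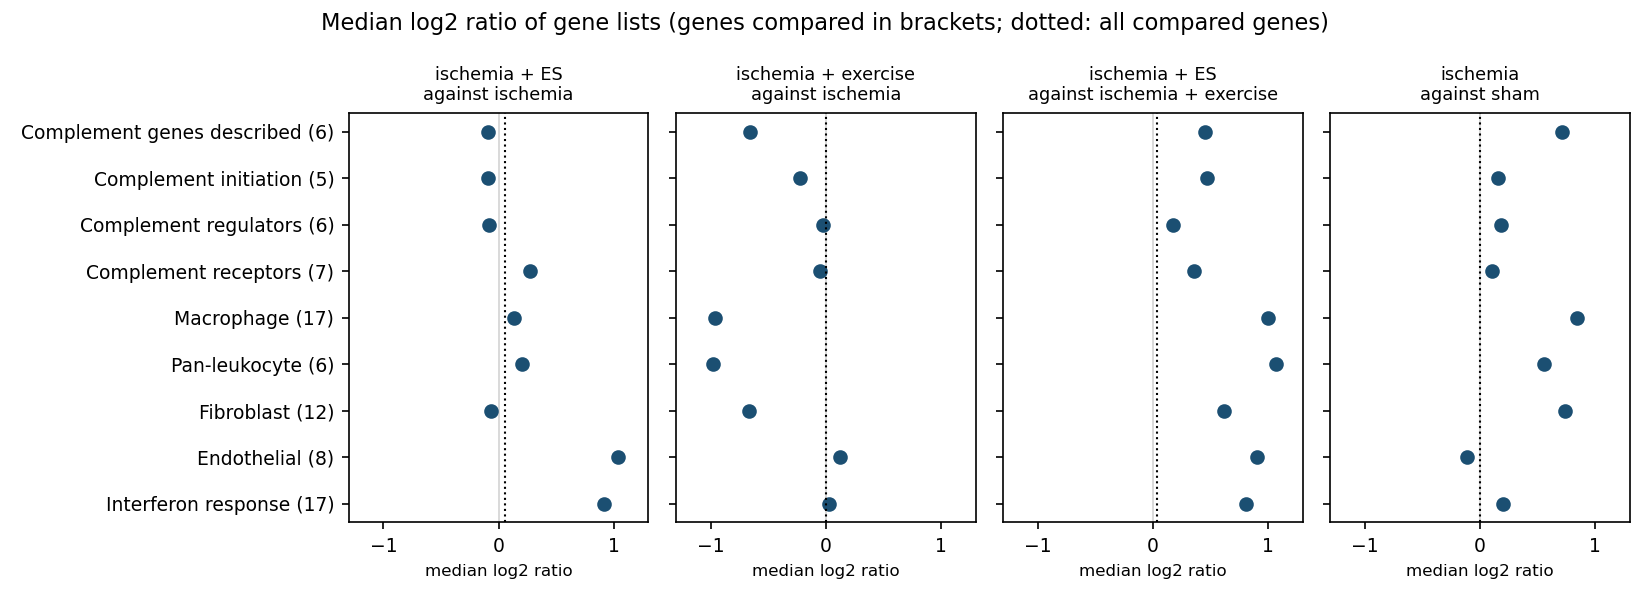
Median log2 ratio (horizontal axis) of the 6 complement genes and of 8 other gene lists in 4 comparisons, with the number of genes compared in brackets; the dotted line is the median of all compared genes. The complement genes lie beside the macrophage and fibroblast lists in ischemia against sham (0.71, 0.84 and 0.74), and apart from the endothelial and interferon lists in ES against ischemia (-0.09, 1.03 and 0.92).

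The genes whose 4-array profile lay nearest to the mean of the C1q chains were looked up among 8768 other genes above the floor on all arrays. Likeness was the root mean square difference of log2 signals, each centred on its own mean over the 4 arrays, so it describes 4 values per gene and many genes lie close. The nearest were Tgfbi, a secreted matrix protein gene, at 0.021 and Fndc1 at 0.026, followed by Irgm, Golim4, Skic2, Rbm28, Col8a1 and RT1-DMa, at 0.039 to 0.064. Tgfbi had a signal of 828 with ES, 661 with exercise, 1038 in ischemia and 578 in sham. Among the complement genes themselves, C1qc lay 0.110 from Serping1, 0.112 from C1s, 0.164 from C1qa and 0.366 from C1qb, the genes on either side of it. The mean is not the profile of any one chain, since C1qb parted from the others (0.441 from C1qa). Taken singly, C1qa was nearest to Col5a2 at 0.034, C1qc to Vcam1 at 0.015 and C1qb to Pon3 at 0.081, genes that are not among the 8 nearest to the mean. Serping1 was nearest to Lnx2 and Fgl2, C1r to Armcx6 and Fcna, and C1s to Golim4 and Col8a1.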

How the data were processed

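Per the labels' protocols, biotinylated cRNA was made from muscle total RNA by a 3' in vitro transcription kit. The authors deposited linear intensities, 1 for each probe set on each array, and MAS5 is named, without a version, in the submitters' processing notes. All 4 arrays had a 2% trimmed mean of 150.1 as deposited, so differences in total mRNA cannot be seen. Genes were named from the platform annotation of 2016. Of 31099 probe sets, 20832 had 1 symbol and 436 had several, from which no gene was named.

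Values were scaled to a common 2% trimmed mean, floored at the 50th percentile and log2 transformed. Each gene was taken at its brightest probe set. With 1 array per group no p-value was computed, and 2-fold was used as a description. Precision is limited by the number of arrays. Alternatives tried were normalization by quantiles or cyclic loess (limma 3.58.1 in R 4.3.3), and other floors, folds and probe set rules. The calculation, in Python 3.11.15, was tested on simulated arrays. The members, lists and comparisons were chosen with earlier results of these data known. Named genes were all members, complement list genes past 2-fold, a set of abundant complement genes, and the genes with the nearest profiles. Genes named as lying under the floor, and Cr1l, Cd59b, Fcna, Cd163, Lgals3, Pi16, Lum, Alb and Apoa1, were added after their values were seen. Protein sequences of the C1q chains were not used here.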

Additional observations from a re-analysis of the deposited data

How the results depend on the processing

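Of the 6 measured genes among C1q, C1r, C1s and Serping1, none was past 2-fold in 4 of 6 comparisons, and in the others C1qb alone was. The count in ischemia against sham, 1, became 0 under quantile or cyclic loess normalization, with the floor raised to the 70th percentile and at a 3-fold threshold, 4 at 1.5-fold, and 2 when the brightest Cfb and C2 probe set was counted as a further gene, an alternative chosen after seeing the data. With that probe set the count was also 1 in exercise against ischemia and 1 in ES against sham, in place of 0. The count in ES against ischemia, 1, became 0 with the floor at the 70th percentile, which lies above all 4 C1qb signals, and 0 at 3-fold. At 1.5-fold the counts were 4 in exercise against ischemia, 2 in ES against exercise and 2 in ES against sham, in place of 0. The 6 medians moved by less than 0.20, the spread of the log2 ratio between exercise and sham over 9058 genes, under every alternative tried. Of the log2 ratios of single genes, 243 of 252 values under an alternative moved by less than this spread; the other 9 were those of C1qb at the higher floor and of C3 at the lower one. No paired analysis was possible because each group has 1 array. Without replicates, the noise of dim signals such as those of C1qb was not measured.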

Other observations

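A probe set annotated to C4a and C4b together had a signal of 105 with ES, 158 with exercise, 226 in ischemia and 103 in sham. It was 2.20-fold higher in ischemia than in sham and 2.16-fold lower with ES than in ischemia. Like C1qb, and unlike C1qa and C1qc, it was high in ischemia and close to sham with ES. C4 is the substrate of C1s. The value cannot be assigned to either C4 gene, and it was looked up after the C1qb values were seen.

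The 2 probe sets annotated to Tubb4b and C7 together followed C1qa and Serping1 in the order of pairs. The brighter had a signal of 269 with ES, 165 with exercise, 271 in ischemia and 176 in sham, and the dimmer 65.4 with ES, 33.6 with exercise, 61.9 in ischemia and 41.1 in sham. Tubb4b encodes a tubulin and C7 a part of the terminal complex, and the probe sets do not tell them apart.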
